A study of Schizosaccharomyces pombe with 2 samples.

Results

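The wild-type library of a fission yeast RNA sequencing study was described here across every gene listed for it. The study sequenced 1 library of wild-type Schizosaccharomyces pombe and 1 library of cells lacking ppr10, both from cultures in logarithmic growth, and no strain background, auxotrophy or medium beyond that is given in the sources used here. Of those 2 libraries only the wild type was used, with its uniquely mapped reads, its RPKM values (reads scaled to the listed length of the gene and to the size of the library) and its coverage score. All 5076 genes entered, and a dash was read as 0. The library held 17053000 reads in genes, to the nearest 1000, with a median of 1497 reads per gene. There was no replicate, so the spread between cultures is unknown for every value below. Intervals are exact 95% intervals. On reads they cover counting error only. On shares of genes they treat genes as independent draws, which neighbouring or copied genes may not be.

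A culture of fission yeast in logarithmic growth takes up glucose and ferments much of it to ethanol, and spends much of its transcription on making ribosomes. Ribosomal protein genes in this species are known for a promoter element named HomolD, often accompanied by a second element, HomolE. Genes for mating, meiosis and sporulation are known to stay low until nutrients run out, and several glucose-repressed genes do too. In organisms such as yeasts, highly expressed genes are also known for a biased choice among synonymous codons.

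The promoter stretches below are shown because a HomolD box stood at a similar place before many of the most abundant genes. Each is the 70 bases that end just before the annotated transcript start, read 5′ to 3′ on the strand of the gene from RefSeq's ASM294v3, while the authors' files used an earlier build, so no coordinates are given. Capitals mark HomolD, searched as CAGTCACA or its complement TGTGACTG, and HomolE, searched as ACCCTACC or its complement GGTAGGGT.
rps102 (chromosome I, minus strand): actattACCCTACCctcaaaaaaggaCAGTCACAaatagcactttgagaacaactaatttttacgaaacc
cpc2 (chromosome I, plus strand): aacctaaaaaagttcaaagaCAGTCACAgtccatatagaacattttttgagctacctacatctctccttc
rps2 (chromosome III, minus strand): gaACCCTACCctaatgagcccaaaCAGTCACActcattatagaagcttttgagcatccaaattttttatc
rpl8 (chromosome II, plus strand): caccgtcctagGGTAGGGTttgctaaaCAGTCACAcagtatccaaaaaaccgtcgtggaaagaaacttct
tef103 (chromosome II, minus strand): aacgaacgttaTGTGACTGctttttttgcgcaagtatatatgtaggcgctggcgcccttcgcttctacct
tpi1 (chromosome III, plus strand): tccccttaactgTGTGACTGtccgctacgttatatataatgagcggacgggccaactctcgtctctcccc
sks2 (chromosome II, plus strand): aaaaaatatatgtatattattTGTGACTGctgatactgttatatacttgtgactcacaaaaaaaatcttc
fba1 (chromosome II, plus strand): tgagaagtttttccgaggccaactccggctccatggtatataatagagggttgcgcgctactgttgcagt
The box began 43 to 59 bases before the annotated start in the 7 genes that have it. It read CAGTCACA on the strand of the gene in the 4 ribosomal protein genes shown, and on the other strand in tef103, tpi1 and sks2. The aldolase gene fba1, the second most abundant of all, held neither element in this stretch.

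The label of logarithmic growth was checked against marker genes. Of 18 starvation or glucose-repressed genes found in the table, 17 were below the median of all genes, which was 67.1 RPKM, and the list's own median was 18.4 RPKM. Gluconeogenic fbp1 was at 19.7 RPKM, the mating regulator ste11 at 10.1 RPKM and the glycerol dehydrogenase gene gld1 at 2.43 RPKM. The exception was map3, the receptor for M-factor pheromone, at 70.3 RPKM. All 14 meiosis genes were below the median of all genes, with a list median of 8.59 RPKM, but they were not silent alike. The recombination gene mde2 was at 58.0 RPKM, the sporulation kinase gene spo4 at 49.4 RPKM and its partner spo6 at 46.6 RPKM, whereas the meiotic RNA-binding gene spo5 had 28 reads at 0.964 RPKM. The 8 growth genes found ran from 114 RPKM for nuc1, the large subunit of RNA polymerase I, to 5495 RPKM for tef103. The plasma membrane proton pump gene pma1 was at 1425 RPKM and fibrillarin, fib1, at 1652 RPKM. The gene deleted in the other strain, ppr10, which encodes a mitochondrial pentatricopeptide repeat protein, had 1879 reads and 71.2 RPKM in the wild type, above 52.3% of genes. Of 13 genes often used as strain markers, the 10 analysed were all above the median, from 128 RPKM for lys1 to 763 RPKM for leu1. The genes ura4 and his3 were not analysed here, and can1 was left out by choice.

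Most genes sat within a narrow band of levels, and a small number held much of the library. The quartiles of RPKM were 35.1 and 138, and 2973 genes, or 58.6%, lay from 10 to 100 RPKM. Above 1000 RPKM there were 151 genes, and below 1 RPKM there were 92. The 10 genes of highest RPKM held 6.12% of reads (6.112% to 6.134%), the 50 highest held 16.4% and the 500 highest 49.1%. When genes were ordered by reads instead, 421 genes, or 8.29% of the table, were enough to reach 50% of all reads. The lower 2538 genes by RPKM held 13.9% of reads.

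Genes for making proteins and fermenting sugar held a large share of the library. The 141 cytosolic ribosomal protein genes were 2.78% of genes and held 11.5% of reads (11.492% to 11.522%). The 61 translation factor genes held 6.42% and the 20 glycolysis and fermentation genes 5.76%, so that these 222 genes together, 4.37% of the table, held 23.7% of reads. Relative to its number of genes, glycolysis and fermentation had the highest share of reads of any class, at 14.6 times its share of genes, against 5.34 times for translation factors and 4.14 times for ribosomal proteins. Adding ribosome biogenesis with 4.04% of reads and aminoacyl-tRNA synthetases with 1.79% to the ribosomal proteins and translation factors brought the genes of protein synthesis to 23.8% of reads from 7.33% of genes. Because ribosomal protein genes are short, their share of summed RPKM, a measure per length, was 22.2%. Amino acid metabolism held 7.05% of reads, and chaperones and heat shock proteins 4.74%. Genes of the tricarboxylic acid (TCA) cycle and respiration encoded in the nucleus held 1.96% of reads, or 1.14 times their share of genes.

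**Figure D1:**
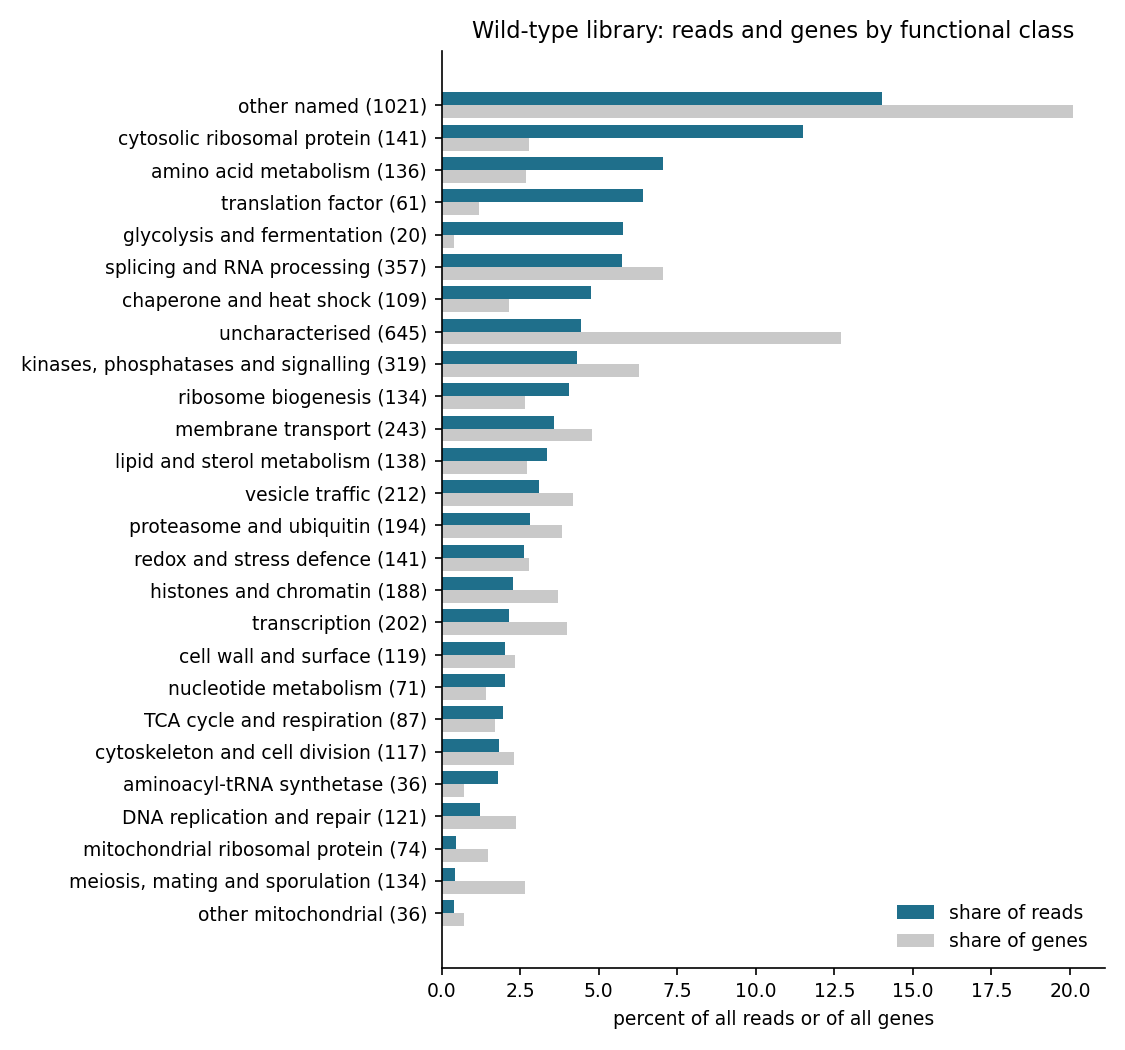
Percent of all reads (blue) and percent of all genes (grey) in each functional class of the wild-type library, with the number of genes in parentheses; transposons and genes with no text are not drawn. Cytosolic ribosomal protein genes hold 11.5% of reads with 2.78% of genes, and uncharacterised genes 4.43% of reads with 12.7% of genes.

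At the other end, uncharacterised genes were 12.7% of the table and held 4.43% of reads, or 0.349 times their share of genes. That class depends on the text used: it held 1.72% of reads when the RefSeq product text was taken for every gene. Genes of meiosis, mating and sporulation held 0.437% of reads with 134 genes and had a median of 14.9 RPKM. Of the 134, 1 was at 100 RPKM or more. Of all 5076 genes, 1599 were from 100 to 1000 RPKM and 151 higher. Mitochondrial ribosomal proteins, which build the ribosome of the organelle, held 0.447% of reads, and their median of 92.9 RPKM stood beside 1128 RPKM for the cytosolic ones, which were 12.1 times higher. The transcription class had a median of 59.3 RPKM and DNA replication and repair one of 47.6 RPKM, both below the median of all genes. The largest class, 1021 genes whose text fitted no key word, held 14% of reads. Classes came from key words in gene descriptions and are coarse. For example, fbp1 fell among the phosphatases, lys1 among the redox enzymes and ppr10 among the uncharacterised genes. The uncharacterised class also held genes with a named family, such as snd302 of the pho88 family.

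**Figure D2:**
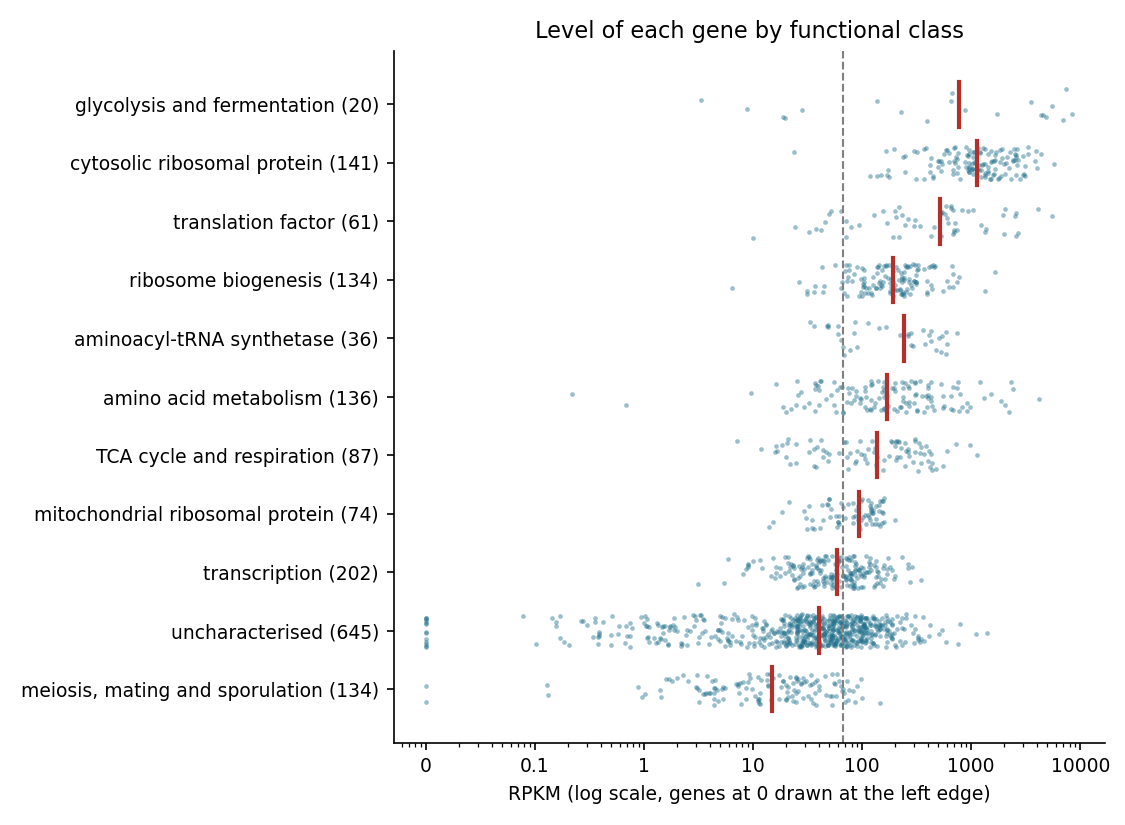
RPKM of each gene (points, log axis) in 11 functional classes of the wild-type library, with the class median (red bar) and the median of all genes, 67.1 RPKM (dashed line). Glycolysis spans from 3.31 to 8457 RPKM, while 140 of 141 cytosolic ribosomal protein genes are at 100 RPKM or more. Of all 5076 genes, 1599 are from 100 to 1000 RPKM and 151 higher.

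The 10 highest genes by RPKM were 7 of glycolysis and fermentation, 2 ribosomal protein genes and 1 elongation factor gene. The highest was tdh1 (SPBC32F12.11), glyceraldehyde-3-phosphate dehydrogenase, with 145795 reads and 8457 RPKM (8413 to 8500.3). It was followed by fba1, fructose-bisphosphate aldolase, at 7352 RPKM, and eno101, enolase, at 6939.8 RPKM. The highest ribosomal protein gene was rps102, for small-subunit protein eS1, at 5714 RPKM, and cpc2, which encodes the RACK1 protein of the small subunit, was at 4352 RPKM. The elongation factor EF-1 alpha gene tef103 was at 5495 RPKM. The most reads of any gene, 163495 or 0.959% of the library, fell on met26 (SPAC9.09), the methionine synthase, which has 2295 bases of listed length and so ranked below 10 other genes by RPKM.

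Of the 30 highest genes by RPKM, 16 encoded ribosomal proteins, 8 were of glycolysis and fermentation and 3 were translation factors. The 3 others were met26, sks2 and obr1. Their levels were 4178 RPKM for met26, 3697 RPKM for sks2, a chaperone that works at the ribosome, and 2949 RPKM for obr1, a quinone oxidoreductase. None of the 30 had a coding region that overlapped another in the annotation, which matters because strandedness was not given in the sources used here. In all, 50 genes had such an overlap, with 0.267% of reads.

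Within glycolysis the levels differed by the place in the pathway. The enzymes that prepare the sugar were lower: 394 RPKM for hexokinase gene hxk1, 660.4 RPKM for hxk2, 882 RPKM for the isomerase gene pgi1 and 656 RPKM for phosphofructokinase, pfk1. From aldolase to enolase every step had a gene between 3554 RPKM, phosphoglycerate kinase pgk1, and 8457 RPKM, tdh1. Triosephosphate isomerase, tpi1, was at 4528 RPKM and phosphoglycerate mutase, gpm1, at 5563 RPKM. Pyruvate kinase, pyk1, was at 1738 RPKM. The steps that make ethanol were high again, with 4392 RPKM for the pyruvate decarboxylase gene pdc101 and 4863 RPKM for the alcohol dehydrogenase gene adh1.

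Where an enzyme of this pathway had several genes, 1 of them usually carried nearly all the reads. For enolase, eno101 had 156211 reads against 198 for eno102, which left eno102 with 0.127% of the step's reads (0.110% to 0.145%), at 8.78 RPKM. For pyruvate decarboxylase, pdc101 held 99.1% of the step's reads, while pdc202, pdc201 and pdc102 were at 19.6, 18.7 and 3.31 RPKM. For glyceraldehyde-3-phosphate dehydrogenase, tdh1 held 98.4% and gpd3, at 138 RPKM, held 1.60%. For alcohol dehydrogenase, adh1 held 95.1% and adh4 4.85%. Hexokinase was the exception, with 61.2% of reads in hxk2 and 38.8% in hxk1. Of tdh1's 50-base windows 24.3% also occur elsewhere in the genome, and reads that fall in such windows may not be counted as unique. Reads were longer than these windows, since 1 read covered 96.15% of the 156 bases of SPBC30B4.09. The percentages of windows given here and below are therefore no measure of the reads lost.

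**Figure D3:**
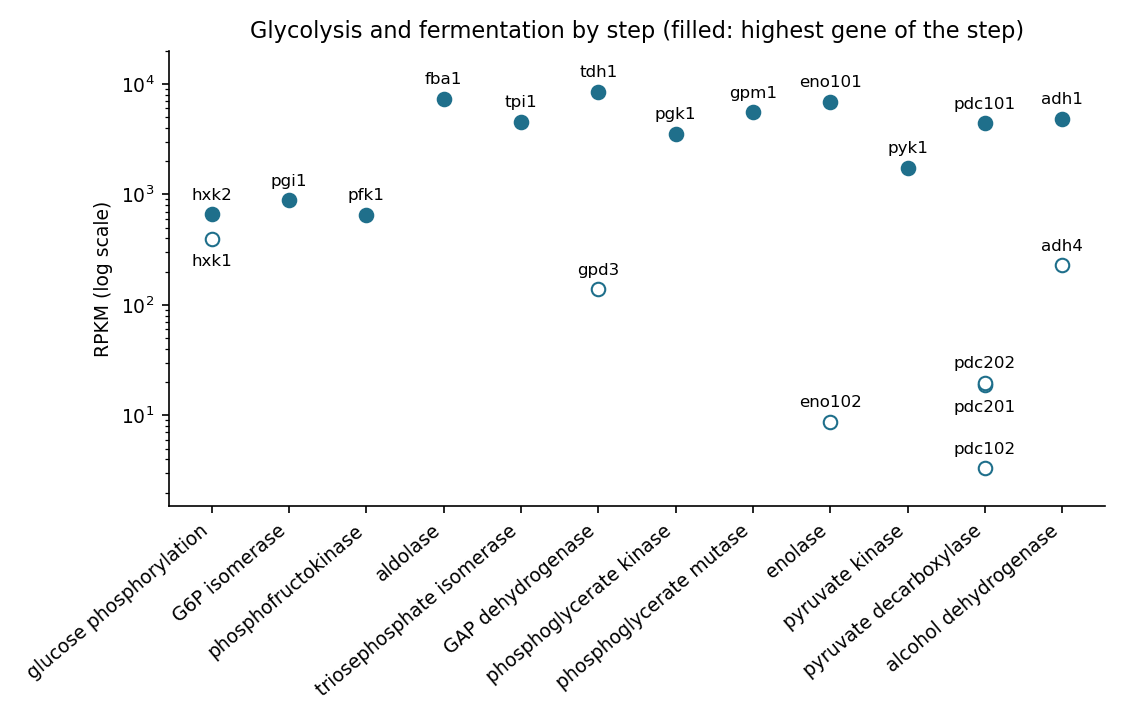
RPKM (log axis) of the genes of glycolysis and fermentation in pathway order in the wild-type library; filled circles mark the highest gene of a step and open circles the others. Steps from aldolase to enolase lie between 3554 and 8457 RPKM, and eno102 and pdc102 lie at 8.78 and 3.31 RPKM.

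Other families of related genes divided their reads in different proportions. The 3 genes for EF-1 alpha, which brings aminoacyl-tRNA to the ribosome, had 47.1% of their family's reads in tef103, 35.3% in tef101 and 17.6% in tef102. These 3 genes also share 74.4% to 79.7% of their windows with another place in the genome, so the split rests on the reads that could be placed. EF-2, which moves the ribosome along the mRNA, had 60.7% in eft202 and 39.3% in eft201, and 88% of the windows of both genes occur elsewhere in the genome, so that this split has the same limit. Ribosomal protein eS1 had 64.9% in rps102 and 35.1% in rps101, and uL4 had 72.1% in rpl402 and 27.9% in rpl401. Among the Hsp70 chaperones, ssa2 stood at 2497 RPKM with 98.3% of the reads of its pair, and ssa1 at 42.9 RPKM.

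In amino acid metabolism, after met26 came ilv5, of branched-chain amino acid synthesis, at 2429 RPKM, the S-adenosylmethionine synthetase gene sam1 at 2331 RPKM, the adenosylhomocysteinase gene SPBC8D2.18c at 2237 RPKM and the serine hydroxymethyltransferase gene shm1 at 2034 RPKM. Chaperones were led by sks2, ssa2, the hsp90 gene at 2013 RPKM, pss1, a heat shock protein gene, at 1478 RPKM and the mitochondrial Hsp70 gene ssc1 at 1429 RPKM. Actin, act1, was at 2149 RPKM, above beta-tubulin nda3, at 599.9 RPKM, and alpha-tubulin nda2, at 416 RPKM. Histone genes reached 1548 RPKM for hht1 (H3) and 1331 RPKM for htb1 (H2B). Among transporters, after pma1, the hexose transporter gene ght8 was at 783 RPKM, the mitochondrial import receptor gene tom70 at 543 RPKM and the mitochondrial ADP/ATP carrier gene anc1 at 529 RPKM.

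The 87 genes of the TCA cycle and respiration had a median of 137 RPKM, and the 141 of redox and stress defence one of 78.9 RPKM. Below 1 RPKM there were none of the 87 and 5 of the 141, or 3.55%, against 1.81% of all genes. The genes named next are among the highest of their classes. The malic enzyme gene mae2 was at 1135 RPKM, ATP synthase subunit gene atp2 at 973 RPKM and pyruvate dehydrogenase gene pda1 at 718 RPKM. Superoxide dismutase, sod1, was at 1151 RPKM and the peroxiredoxin gene tpx1 at 974 RPKM. The aldo-keto reductase gene SPAC977.14c was at 1262 RPKM, and 34.1% of its windows occur elsewhere in the genome. Among signalling genes, the Ran GTPase gene spi1 reached 1385 RPKM and the 14-3-3 gene rad24 1181 RPKM. The highest genes classed as uncharacterised were knh3 at 1385 RPKM and SPAC27E2.11c, annotated as specific to Schizosaccharomyces, at 1099 RPKM.

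Within the cytosolic ribosome, levels ranged widely and followed the length of the gene. The proteins of a ribosome are known to occur in near-equal numbers, but the levels here are of mRNA and per gene. Several of these proteins have paralogous genes, whose values were not summed. The quartiles of RPKM were 678 and 1820.3, and the range ran from 23.7 RPKM for rpl39 to 5714 RPKM for rps102. The 17 genes under 300 bases had a median of 298 RPKM, the 30 genes from 300 to 399 bases 809 RPKM, the 39 genes from 405 to 498 bases 1033 RPKM, the 19 genes from 525 to 594 bases 1802 RPKM, and the 36 longer ones 2362 RPKM. Spearman's rank correlation of length with RPKM was 0.71 over the 141 genes, given as a description across genes of 1 library. The lowest, rpl39, is listed with 156 bases and had 63 reads. Among genes near 500 bases, rpl1201 at 175 RPKM and rpl1202 at 118 RPKM stood low, and 96.4% and 99.1% of their windows occur elsewhere.

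The 74 mitochondrial ribosomal protein genes showed the same relation, with a rank correlation of 0.70. Their median was 45.2 RPKM over 22 genes under 400 bases, 97.2 RPKM over 29 genes from 408 to 687 bases and 122 RPKM over 19 genes from 750 to 984 bases. It was not shared by every complex: over 32 proteasome subunit genes the rank correlation was −0.43, and over all 5048 genes with an annotated coding sequence it was −0.01. Over all genes, those of 201 to 297 bases nevertheless had a median of 25 RPKM, those of 801 to 999 bases 83.4 RPKM and those of 3000 bases or more 45.9 RPKM. RPKM divides reads by the listed coding length, and the part of fragment size or transcript length in this relation was not tested.

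**Figure D4:**
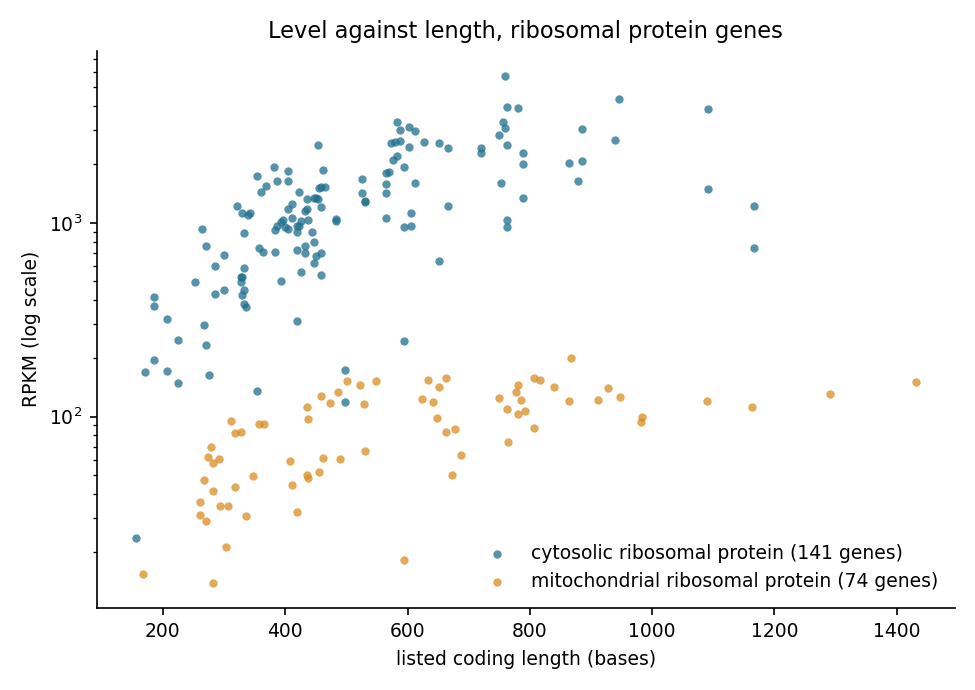
RPKM (log axis) against listed coding length in bases for 141 cytosolic (blue) and 74 mitochondrial (orange) ribosomal protein genes, 1 point per gene of the wild-type library. Both groups lie lower at short lengths, with medians of 298 RPKM under 300 bases among cytosolic genes and 45.2 RPKM under 400 bases among mitochondrial genes.

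The promoter elements shown above were much more frequent before ribosomal protein genes than before other genes. In the 300 bases from 250 before to 50 after the annotated transcript start, HomolD was found in 89 of 141 ribosomal protein genes, or 63.1% (54.6% to 71.1%), against 46 of 4907 other genes, or 0.937% (0.687% to 1.25%). HomolE was found in 41 ribosomal protein genes, or 29.1%, against 41 other genes, or 0.836%. The 2 motifs were searched on both strands, and neither contains the other; 23 ribosomal protein genes had both, 66 only HomolD, 18 only HomolE and 34 neither. Over all 5048 promoter windows of this length, 2.67% held HomolD, 1.62% HomolE and 48.2% TATAAA. In ribosomal protein genes HomolD kept a fixed place: 85 of 93 matches began 40 to 70 bases before the annotated start, with a median of 51 bases. In other genes 20 of 46 matches fell in that range. Of the 93 matches, 62 read CAGTCACA on the strand of the gene.

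Genes with HomolD were also more abundant outside the ribosome. The 46 other genes with the box had a median of 317 RPKM (quartiles 68.3 and 1271). The 4861 without it had a median of 64.4 RPKM (34.6 and 128). Of the 46, 14 were above 1000 RPKM, and the lowest, pth4, was at 9.93 RPKM. The highest of the 46 included tef103, tef101 and tef102, tpi1, sks2, ilv5 and sam1. Also among them were the initiation factor eIF4A gene tif1 (2535 RPKM) and the translationally controlled tumour protein gene tma19 (2526 RPKM). The elongation factor gene tef3 was at 1985 RPKM. Both strands were searched, so a window may hold the box of a neighbouring gene, which was not tested. Among the ribosomal protein genes themselves, those with HomolD had a median of 1272 RPKM (quartiles 895 and 1932) and those without it 907 RPKM (485 and 1621), so the groups overlapped widely. In the 300 bases around the annotated transcript start, TATAAA was in 38 of 141 ribosomal protein genes, or 27.0% (19.8% to 35.1%). It was in 48.8% of other genes (47.4% to 50.2%). This difference depended on the window. In the 500 bases before the start codon, TATAAA was in 67.4% of ribosomal protein genes and 70.3% of other genes. HomolD was there in 63.8% and 1.1%. In the 300-base window, 45.1% of genes in the lowest of 10 equal bins of RPKM had TATAAA. The fifth bin had 48.9% and the highest 43.4%. In the highest bin, genes outside the ribosomal protein class had it at 48.4%. Above 1000 RPKM it was found in 47 of 151 genes, or 31.1% (23.8% to 39.2%). Without ribosomal protein genes it was found there in 25 of 69, or 36.2% (25% to 48.7%). Of all genes under 1000 RPKM, 48.7% had it. These are matches of letters in a window, not measured binding sites.

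Codon choice changed along the level of expression, mainly in the upper bins. The codon adaptation index scores how closely a gene follows the synonymous codons used in cytosolic ribosomal protein genes, with 1 as the highest value. Its median was 0.372 in the lowest bin of RPKM, 0.382 in the fifth, 0.404 in the eighth, 0.445 in the ninth and 0.602 in the highest. Because the index was built from ribosomal protein genes, these were also left out, and the median in the highest bin was then 0.556. The rank correlation of the index with RPKM was 0.49 over 5048 genes and 0.45 over the 4907 others. Within the 61 translation factor genes it was 0.86 and within the 20 glycolysis and fermentation genes 0.80, but it was −0.01 over the 32 proteasome subunit genes.

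**Figure D5:**
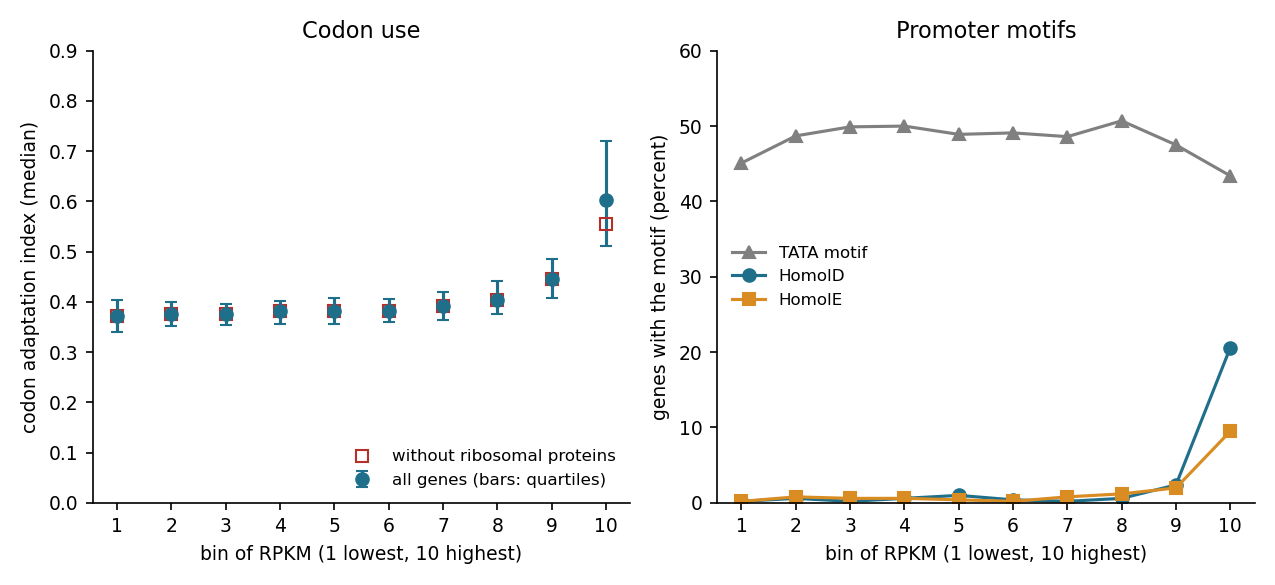
Left, median codon adaptation index (points) with quartiles (bars) in 10 equal bins of RPKM, and the median without cytosolic ribosomal protein genes (squares); right, percent of genes in each bin with HomolD, HomolE or the TATA motif in the promoter window. The index rises to 0.602 in the highest bin, where HomolD is in 20.6% of genes, and the TATA motif lies between 43.4% and 50.7% throughout.

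The codons behind this differed by amino acid. Arginine was written CGT in 24.2% of cases in the lowest bin, in 58.4% in the highest bin without ribosomal proteins, and in 70.4% in ribosomal protein genes. Glycine was written GGT in 36.7%, 60.6% and 65.7% of cases in the same groups, and lysine AAG in 33.8%, 55.8% and 83.4%. Of the 18 codons most used for their amino acid in ribosomal protein genes, 17 were more frequent in the highest bin than in the lowest, the exception being GAT for aspartate.

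Some paralogues of glycolysis showed the difference within the same enzyme. The first 90 coding bases of the highest and the lowest enolase and pyruvate decarboxylase genes are shown for this reason, from RefSeq's ASM294v3. Capitals mark codons used less than 20% as often as the favoured synonym in ribosomal protein genes.
eno101 (chromosome II, plus strand): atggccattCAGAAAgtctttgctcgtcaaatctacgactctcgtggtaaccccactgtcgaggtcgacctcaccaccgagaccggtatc
eno102 (chromosome II, minus strand): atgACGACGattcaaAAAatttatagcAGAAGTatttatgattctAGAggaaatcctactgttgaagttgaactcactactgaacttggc
pdc101 (chromosome I, minus strand): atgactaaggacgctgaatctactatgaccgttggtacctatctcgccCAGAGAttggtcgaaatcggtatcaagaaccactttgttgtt
pdc102 (chromosome I, plus strand): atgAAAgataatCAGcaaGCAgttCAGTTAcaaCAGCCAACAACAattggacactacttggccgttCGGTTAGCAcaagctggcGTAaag
Over the whole gene, rare codons made up 3 of 424 scored codons in eno101 and 115 of 425 in eno102, or 0.708% and 27.1%. In the decarboxylases they made up 2% of codons in pdc101 and 25.8% in pdc102. The index was 0.815 in eno101 and 0.422 in eno102. Among the decarboxylases it was 0.809 in pdc101 and 0.388 in pdc102. It lay between these in pdc202, at 0.486, and pdc201, at 0.594, although their levels were only 19.6 and 18.7 RPKM. The pair tdh1 and gpd3 did not show the difference, with an index of 0.794 in tdh1 and 0.797 in gpd3 although their levels were 8457 and 138 RPKM.

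Introns and leaders varied less simply. An intron was annotated in 36.8% of genes in the lowest bin of RPKM, in 54.3% in the eighth and in 40.2% in the highest, and the rank correlation of intron number with RPKM was 0.03. Of genes at 1 RPKM or more with an annotated coding sequence, 47.3% had an intron. By class, 5% of the 20 glycolysis and fermentation genes had one. The share was also low in redox and stress defence, at 22%, and in amino acid metabolism, at 24.3%. It was 51.1% in cytosolic ribosomal protein genes and 63.9% in proteasome and ubiquitin genes. The annotated 5′ leader, measured in genes that have one, had a median of 134 bases in the second bin, 140 bases in the third, 81 bases in the eighth and 41 bases in the highest. The coverage score, the percent of the listed length that reads reached, was at 99 or more in 4098 genes, so for most genes the level rested on reads over nearly all of the coding sequence.

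The near-silent genes were mainly short, uncharacterised and often near chromosome ends. Of the 92 genes below 1 RPKM, 48 were uncharacterised, or 7.44% of that class, against 1.81% of all genes, and together the 92 held 385 reads. The 81 of them with an annotated coding sequence had a median length of 444 bases, against 1152 bases for the 4967 at 1 RPKM or more. An intron was annotated in 25.9% of these 81 and in 47.3% of the others. A near-identical copy was found for 23.5% of the 81 and for 1.49% of the others. No cytosolic ribosomal protein, glycolysis or translation factor gene was among them. On either side of 1 RPKM, the values were close: rec27 was at 1.01 RPKM with 7 reads and SPAC23H4.05c at 0.997 RPKM with 5 reads.

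At 0 reads there were 17 genes. They comprised mei3, the inducer of meiosis, mug116, the fluoride channel gene fex2, the mitochondrially encoded SPMIT.05 and 13 uncharacterised genes. The 13 were SPAC27F1.10, SPAC2H10.04, SPAC3G6.07, SPAC922.09, SPAPJ695.01c, SPBC1348.04, SPBC354.11c, SPBC3E7.17, SPBC83.19c, SPBC887.16, SPBPB21E7.10, SPCC16C4.21 and SPCC188.05. A count of 0 was taken to allow 3 reads, which is 0.394 RPKM for mei3 and 0.961 RPKM for SPBC3E7.17, whose listed length is 183 bases. The exact 95% interval used for the other levels is wider and reached 0.484 RPKM for mei3 and 1.18 RPKM for SPBC3E7.17, above the limit of 1 RPKM. For fex2 no such bound can be given, since 99.3% of its windows and of those of the related channel gene fex1, which had 6 reads, occur elsewhere in the genome. The same holds for SPBC1348.04, at 100%. The near-silent set also held several genes known from meiosis, among them meu13 at 0.991 RPKM, bqt2 at 0.986 RPKM and the meikin gene moa1 with 3 reads.

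Position along the chromosome went with silence on chromosomes I and II. Taking the 30 outermost annotated genes of each of the 6 chromosome ends, a number chosen after the values were seen, 38 of 180 were below 1 RPKM, or 21.1% (15.4% to 27.8%), against 43 of 4868 genes further in, or 0.883% (0.640% to 1.19%). The counts were 11 and 13 on chromosome I, 10 and 4 on chromosome II, and 0 and 0 on chromosome III. Among the genes with few reads were SPAC869.01, SPAC869.03c and SPAC869.04, with 1, 3 and 2 reads, and SPAC186.02c, SPAC186.03, SPAC186.07c and SPAC186.08c, with 1, 4, 8 and 2 reads. The end regions were not silent throughout: the flavohaemoprotein gene yhb1, between SPAC869.01 and SPAC869.03c, had 6795 reads and 310 RPKM, and pdc101, at 4392 RPKM, and SPAC977.14c, at 1262 RPKM, lay within them. The subtelomeric helicase genes tlh1 and tlh2 had 2 and 12 reads. Some of these regions carry near-identical copies, whose reads may not map uniquely, and the part of unplaced reads in these values was not tested.

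The mitochondrially encoded genes and the Tf2 retrotransposon genes gave few reads. Repeated sequence did not always do so, since the 93 genes with a near-identical copy together held 4.32% of reads. The 9 mitochondrially encoded genes, which RefSeq's table did not name, had 102 reads in all, and the highest, SPMIT.01, had 33 reads at 1.20 RPKM. All of them but SPMIT.01 were counted among the near-silent genes. Whether the library preparation kept mitochondrial transcripts was not tested, so these counts do not give the activity of the organelle's genome. The 3 Tf2 retrotransposon genes had 222 reads, of which Tf2-10 had 125, Tf2-11 had 93 and Tf2-13 had 4. These genes share nearly all of their windows with other copies, 97.1% in Tf2-10, and the coverage score of Tf2-10 was 33.4, the lowest among genes with 50 reads or more. Next were cox1102 at 58.8 and cox1101 at 66.9, a nearly identical pair that shares 97.7% of windows, and snu23 at 64.9, whose listed length of 456 bases differs from the 525 bases annotated in ASM294v3. At the top of the score, ptl3 was given 100.28, aco1 100.04 and bgs3 100.02, above 100, so the score is not a plain percentage in these 3 genes.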

How the data were processed

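Libraries were built from Trizol-extracted total RNA with a NEBNext Ultra kit, per the labels' protocols. The submitters' processing notes list Bowtie2 2.2.3, TopHat2 2.0.12 and the build ASM294v2, and the design text names BWA and TopHat with Cufflinks; which of them made the values was not given in the sources used here. Per the file headers, the deposited table gives a count of uniquely mapped reads per gene, RPKM made by the authors and a coverage score. RPKM recomputed from the deposited counts, lengths and total differed by at most 4.95e-07. Of 5076 lengths, 5075 were multiples of 3, so they are taken as coding lengths.

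Names, products and sequences came from RefSeq's ASM294v3 by locus tag (5048 matched, 1 by synonym, 27 not). Genes were put in 27 functional classes by ordered key words in the deposited Blast nr text; that text was empty for 3733 genes with 84.5% of reads, and the RefSeq product was used there, a choice made after seeing the file. A near-identical copy means that 20% or more of a gene's 50-base windows occur elsewhere in ASM294v3 (93 genes). The codon adaptation index used cytosolic ribosomal protein genes as its standard. Intervals are exact (Clopper-Pearson or Poisson, 95%). Those on reads cover counting error only, since PCR reads without molecular identifiers are not independent molecules. Those on shares of genes, for motifs and chromosome ends, treat genes as independent draws. With 1 library there is no test and no p-value. Shares, motif search and index were tested on simulated data. Named genes were the 30 highest by RPKM, the 10 with most reads, up to 5 per class with 0.5% of reads or more, those at 0 reads, those next to 1 RPKM, growth markers, glycolytic paralogues and extremes of coverage; others, such as genes with HomolD, near-silent genes and family members, were named after their values were seen. The members, lists and rules were chosen with earlier results of these data known. Python 3, numpy, pandas and SciPy were used.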

Additional observations from a re-analysis of the deposited data

How the results depend on the processing

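No paired analysis was possible because the wild type was 1 library, which also leaves no replicate to drop. Shares of reads were recomputed in other ways, in the order cytosolic ribosomal proteins, glycolysis and fermentation, translation factors, uncharacterised genes, whose main values were 11.5%, 5.76%, 6.42% and 4.43%. As a share of summed RPKM they were 22.2%, 5.79%, 5.51% and 4.99%. Without genes that have a near-identical copy they were 11%, 5.11%, 4.79% and 4.59%. Without the 10 genes with the most reads they were 12.4%, 2.09%, 4.82% and 4.79%. From the RefSeq product text for every gene they were 11.5%, 5.82%, 6.48% and 1.72%. From the Blast nr text alone, an alternative added after seeing the data, they were 0%, 0%, 0.810% and 4.24%, because that text is empty for most genes of the first 3 classes. The share of the 50 most abundant genes, 16.4%, was 19.8% of summed RPKM, 15.6% without copies, 12.7% without the 10 genes with the most reads and 18.8% when ranked by reads. The 92 near-silent genes became 64 below 0.5 RPKM, 135 below 2 RPKM, 106 with fewer than 10 reads and 73 without copies. The median of 67.1 RPKM was 67.5 without copies, 68.4 over genes at 1 RPKM or more and 77.0 when rescaled to TPM. The rank correlation of the codon index with level, 0.49, was 0.45 without cytosolic ribosomal proteins and 0.49 without copies. Depth limits the low end: at 0 reads a gene of 183 bases could still be at 0.961 RPKM by the limit of 3 reads, or 1.18 RPKM by the exact 95% interval.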
